A study of Homo sapiens with 6 samples.

Results

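IFIT1, IFIT3, BST2 and IRF7 are 4 genes of the interferon response, picked by symbol from the 2128 genes listed in the deposited expression tables of SNU668 cells. SNU668 is a human cancer cell line, labelled as gastric signet ring cells. Of the 6 libraries, 3 came from cells titled shGPER, labelled as a knockdown of GPER, the gene (symbol GPER1) of the G protein-coupled estrogen receptor, and 3 came from cells titled shControl, whose genotype label reads WT. All were RNA-seq libraries, and no drug or other treatment is labelled. The series calls the controls wild type, and the labels name no vector, hairpin sequence, number of hairpins, clone or culture, so it is unknown whether the shControl cells carried a control hairpin or whether replicates were cultured apart. The p-values thus measure the spread between these libraries, which may be technical. GPER1 was at 1.83, 2.41 and 2.47 TPM in shGPER libraries and at 11.0, 11.0 and 10.4 TPM in shControl libraries, so the knockdown label held in every library (TPM is a relative level, scaled to the length of the transcript and the total of the library).

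Interferons are secreted proteins that a cell makes when sensors in its endosomes or cytosol meet foreign nucleic acid, double-stranded RNA among it. The sensors act through kinases such as TBK1 on interferon regulatory factors, of which IRF7 is one that switches on the type I interferon genes. Secreted interferon binds receptors on the same or other cells, and the JAK kinases and STAT factors then raise a broad set of effector genes through a DNA motif called the interferon-stimulated response element (ISRE). IFIT1 and IFIT3 encode cytosolic proteins that bind each other and hold back viral RNA, and BST2 encodes tetherin, a membrane protein that keeps budding virus particles on the cell surface. Short hairpin RNAs have a double-stranded stem and can set off this response in some cells, and genes of the IFIT family are among those it is known to raise.

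The 4 genes were chosen with their directions known, so that they moved both ways is a description. IFIT1 and IFIT3 fell in shGPER cells to 36.5% and 41.9% of their shControl means, whereas BST2 and IRF7 rose 2.90-fold and 3.04-fold in mean TPM. In bulk RNA, fewer cells of a type and less RNA per cell cannot be told apart. Each of the 4 passed the test across all genes (limma, adjusted p under 0.05), as did 98.4% of the 1651 genes tested, 47.8% by rising and 50.6% by falling. The 3 shGPER values also lay wholly on one side of the 3 shControl values for 95.3% of all listed genes and 97.4% of those tested. The table therefore holds mostly genes that separate the groups; no label says how they were picked, and passing the test adds nothing particular to these 4.

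Promoter sequence is shown first, because the 4 genes are grouped by a response that is read from it. RefSeq promoter windows (GRCh38.p14, each from 250 bases before to 50 bases after an annotated transcription start) were at hand for IFIT1, IFIT3 and BST2. Capitals mark the ISRE core, GAAANNGAAA, searched on both strands, where it reads TTTCNNTTTC on the opposite one. All windows are printed 5′ to 3′ on the strand of the gene.
IFIT1, chr10:89392373-89392672, plus strand: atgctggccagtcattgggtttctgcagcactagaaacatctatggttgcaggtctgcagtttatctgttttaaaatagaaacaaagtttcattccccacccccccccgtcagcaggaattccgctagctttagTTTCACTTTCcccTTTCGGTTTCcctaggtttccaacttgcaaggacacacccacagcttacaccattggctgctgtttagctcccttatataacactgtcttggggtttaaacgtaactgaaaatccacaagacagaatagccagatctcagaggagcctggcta
IFIT3, first start, chr10:89327747-89328046, plus strand: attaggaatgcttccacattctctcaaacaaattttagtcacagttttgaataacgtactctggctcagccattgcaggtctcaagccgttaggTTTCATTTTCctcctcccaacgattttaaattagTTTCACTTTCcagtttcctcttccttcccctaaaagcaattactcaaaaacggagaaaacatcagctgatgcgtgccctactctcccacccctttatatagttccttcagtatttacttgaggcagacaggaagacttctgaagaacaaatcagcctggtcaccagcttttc
IFIT3, second start, chr10:89332279-89332578, plus strand: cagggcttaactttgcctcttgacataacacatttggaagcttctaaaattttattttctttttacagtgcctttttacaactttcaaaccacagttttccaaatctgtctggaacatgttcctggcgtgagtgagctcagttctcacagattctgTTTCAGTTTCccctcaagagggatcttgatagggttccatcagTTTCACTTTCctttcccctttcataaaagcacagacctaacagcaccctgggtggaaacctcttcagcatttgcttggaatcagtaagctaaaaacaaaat
BST2, chr19:17405581-17405880, minus strand: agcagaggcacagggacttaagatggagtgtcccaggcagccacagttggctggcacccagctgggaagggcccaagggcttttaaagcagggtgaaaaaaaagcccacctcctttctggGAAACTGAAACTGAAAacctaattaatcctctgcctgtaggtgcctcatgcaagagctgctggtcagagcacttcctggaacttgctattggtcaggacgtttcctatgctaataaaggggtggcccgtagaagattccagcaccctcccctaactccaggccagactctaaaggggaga
Each of these 4 windows held 2 copies of the core. In IFIT1 they began 116 and 103 bases before the start, in the first IFIT3 window 156 and 122 bases before it, in the second IFIT3 window 94 and 51 bases before it, and in BST2 130 and 124 bases before it, where the copies share their middle GAAA. The core was present in 3.57% of 35116 promoter windows of the genome. Of 16 windows of tested genes of the interferon lists described below, 8 held it. Counted by gene, 7 of the 12 with a window held it in at least 1 window. These genes were listed for their part in the response, so a raised share is no result of these data. Among the genes of those lists that rose, 3 of 5 held it (BST2, TRIM21 and TRIM5), and among those that fell, 4 of 7 did (DDX60L, IFIT1, IFIT3 and TNFSF10). Across the table it was in 2.58% of 815 windows of genes that rose and in 2.71% of 923 windows of genes that fell. A second motif, the gamma-activated site TTCNNNGAA, which reads the same on the opposite strand, was found 2 times in the BST2 window and in none of the IFIT windows; 7.66% of all windows held it. A match is a string of letters and no evidence of a bound factor.

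IFIT1 (ENSG00000185745; GRCh38 chromosome 10, 89392546 to 89406486, plus strand), which encodes a protein that binds RNA lacking the cap methylation of host messages, had the lowest mean level of the 4 in both groups. It was at 0.69, 0.89 and 0.55 TPM in the shGPER libraries and at 1.91, 1.77 and 2.16 TPM in the shControl libraries. Every shGPER value was below every shControl value and below 1 TPM. IFIT1 averaged 0.71 ± 0.171 TPM in shGPER cells and 1.95 ± 0.198 TPM in shControl cells (SD, n = 3 each). On the scale of log2(TPM + 1) the fold change was -0.79 (SE 0.12; adjusted p = 0.00022 by limma). Since genes were tested only with at least 1 TPM in at least 3 libraries, IFIT1 passed through its shControl libraries alone, and the filter fixed its direction. Its level was above that of only 9.63% of the tested genes, and on this scale its fold change is understated: with a pseudocount of 0.1 TPM it was -1.35.

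IFIT3 (ENSG00000119917; chromosome 10, 89327894 to 89340971, plus strand), whose protein stabilizes IFIT1 in a complex, was at 1.94, 1.91 and 1.49 TPM in shGPER libraries and at 4.05, 4.45 and 4.24 TPM in shControl libraries. The groups did not overlap, and shGPER replicate 3 was the lowest library for both IFIT genes. IFIT3 averaged 1.78 ± 0.252 TPM in shGPER cells and 4.25 ± 0.200 TPM in shControl cells (SD, n = 3 each), and the log2 change was -0.92 (SE 0.11; adjusted p = 5.78e-05 by limma). Both IFIT genes lie inside the span of LIPA, a lysosomal lipase gene on the opposite strand, and share 0 exon bases with it. Reads could still be split with related sequences to a small degree, as 3.19% of the 31-nt words of IFIT1 and 6.19% of those of IFIT3 occur in transcripts of other genes. The neighbouring IFIT2, IFIT5 and IFIT1B were not analysed here.

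BST2 (ENSG00000130303; chromosome 19, 17402939 to 17405648, minus strand) was at 6.80, 6.59 and 6.10 TPM in shGPER libraries and at 2.27, 2.10 and 2.36 TPM in shControl libraries. The lowest shGPER value was above 2 times the highest shControl value. BST2 averaged 6.50 ± 0.359 TPM in shGPER cells and 2.24 ± 0.132 TPM in shControl cells (SD, n = 3 each), and the log2 change was 1.21 (SE 0.10; adjusted p = 5.63e-06 by limma). No 31-nt word of its transcripts occurs in another gene. On the opposite strand, BISPR, a long non-coding RNA gene, and MVB12A begin 38 and 74 bases from it; neither was analysed here.

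IRF7 (ENSG00000185507; chromosome 11, 612553 to 615999, minus strand) had the highest level of the 4 in every library, with 14.8, 16.5 and 20.9 TPM in shGPER libraries and 5.52, 5.68 and 5.98 TPM in shControl libraries. The groups did not overlap, and the shGPER libraries were spread more widely, with replicate 3 the highest. IRF7 averaged 17.4 ± 3.18 TPM in shGPER cells and 5.73 ± 0.234 TPM in shControl cells (SD, n = 3 each), and the log2 change was 1.44 (SE 0.12; adjusted p = 8.42e-06 by limma). This change was above that of 90.6% of the tested genes, and the change of BST2 above that of 80.8%, whereas those of IFIT1 and IFIT3 were above 40.5% and 29.6%. These ranks are on the log2(TPM + 1) scale, which understates the changes of low genes. In mean TPM IFIT1 fell further than IFIT3, to 36.5% and 41.9% of their shControl means. No 31-nt word of IRF7 transcripts occurs in another gene. A two-sided exact permutation test of each of the 4 genes reached p = 0.1, which 3 libraries against 3 cannot go below.

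**Figure D1:**
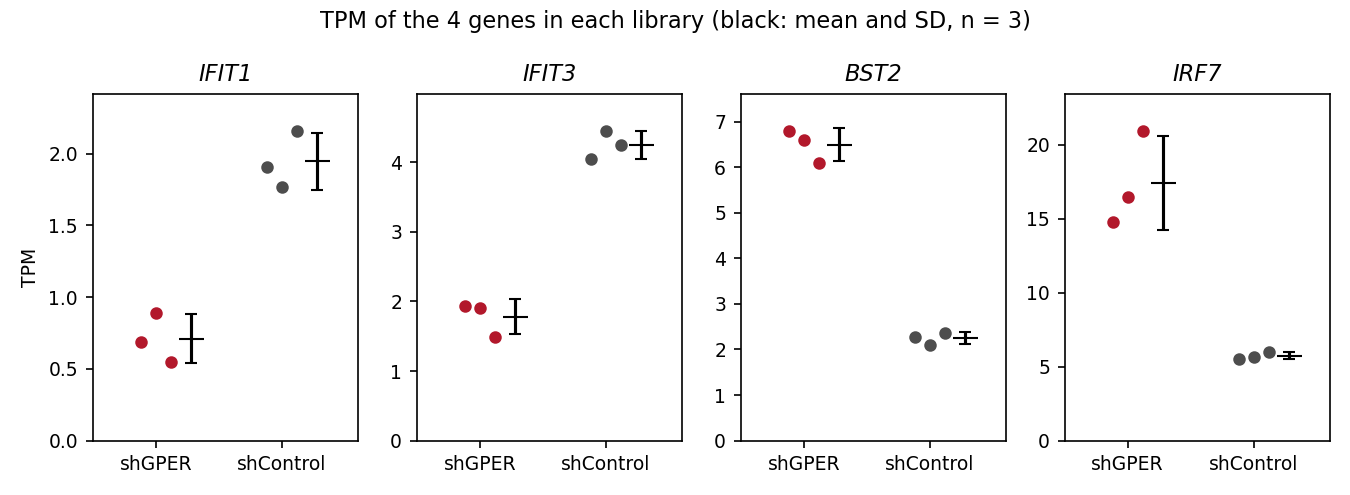
TPM (vertical axes, each from 0 and with its own scale) of IFIT1, IFIT3, BST2 and IRF7 in the 3 shGPER (red) and 3 shControl (grey) libraries; points are libraries and black marks the mean and SD. For IFIT1 and IFIT3 all shGPER points are below all shControl points, and for BST2 and IRF7 all are above.

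The order of the levels differed between the groups. In shGPER libraries the order was IRF7, BST2, IFIT3 and IFIT1, with no overlap between neighbours. In shControl libraries it was IRF7, IFIT3, BST2 and IFIT1, and the ranges of BST2 (2.10 to 2.36 TPM) and IFIT1 (1.77 to 2.16 TPM) overlapped.

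Ratios of TPM inside a library are free of its scaling total, so they compare the genes directly. The ratio of BST2 to IFIT1 was 9.86, 7.40 and 11.1 in shGPER libraries, against 1.19, 1.19 and 1.09 in shControl libraries, 8.18 times higher in the mean. The ratio of IRF7 to IFIT3 was 7.62, 8.62 and 14.1 in shGPER libraries, against 1.36, 1.28 and 1.41 in shControl libraries, 7.48 times higher. The ratios of BST2 to IFIT3 and of IRF7 to IFIT1 were 6.95 and 8.80 times higher. No ratio across the pairs overlapped between the groups. That follows by arithmetic from the opposite moves of the genes, each without overlap, and is no further result.

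Within each pair the ratios of both groups overlapped. IFIT3 to IFIT1 was 2.56 ± 0.358 in shGPER libraries and 2.20 ± 0.284 in shControl libraries, and IRF7 to BST2 was 2.70 ± 0.654 in shGPER libraries and 2.56 ± 0.138 in shControl libraries (SD, n = 3 each). As a mean over each pair on the log2(TPM + 1) scale, BST2 and IRF7 exceeded IFIT1 and IFIT3 by 2.32, 2.30 and 2.67 in shGPER libraries and by 0.27, 0.23 and 0.25 in shControl libraries, a difference of 2.18 between the groups. No test is given for these ratios, because the pairs were formed with the directions of their genes known.

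**Figure D2:**
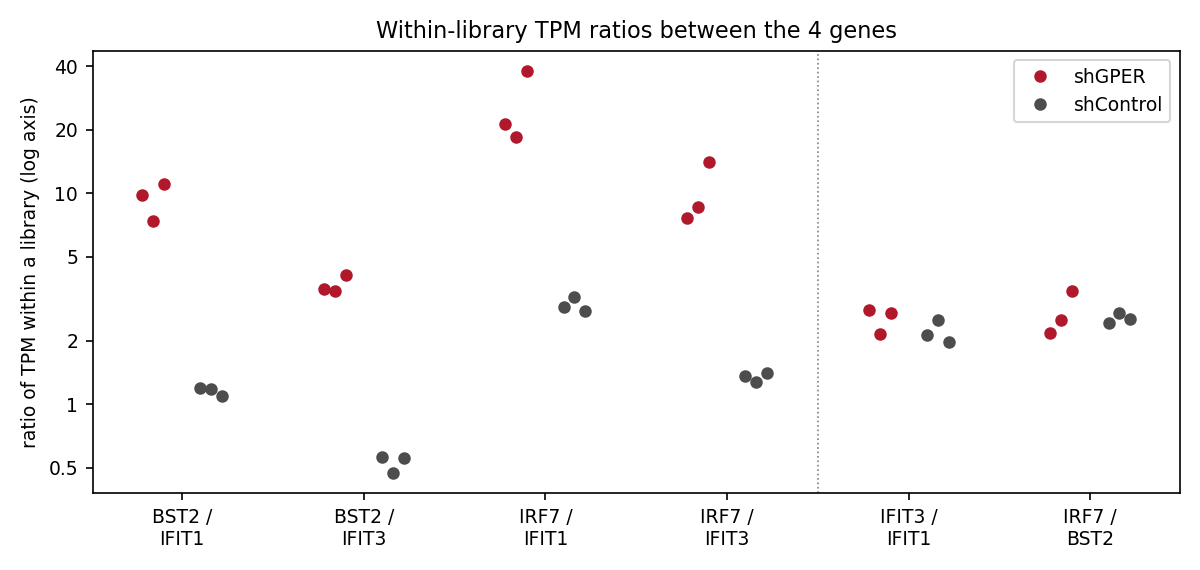
Ratios of TPM between the 4 genes within each library (log axis), for shGPER (red, left) and shControl (grey, right); each point is 1 library. The 4 ratios across the pairs, left of the dotted line, are higher in all shGPER libraries, and the ratios within the IFIT pair and within the pair of BST2 and IRF7 overlap.

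The direction of the 4 genes ran with the base composition of their transcripts. GC content, the share of G and C bases, was 41.6% for IFIT1, 44.2% for IFIT3, 56.4% for BST2 and 66.9% for IRF7. Across the table, genes that rose had a median GC content of 59.6% and genes that fell 44.3%. When the 1626 tested genes with a GC value were split by GC content into 10 bins of like size, 90.2% of the genes in the bin of IFIT1 fell, as did 85.2% of those in the bin of IFIT3. In the bin of BST2 75.9% rose, and in the bin of IRF7 90.8% did. All 4 genes thus moved the way most genes of their base composition did.

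The fit was repeated with a smooth trend on GC content taken out of each library. IFIT1 and IFIT3 were then not called, at log2 fold changes of 0.10 (SE 0.10; adjusted p = 0.412 by limma) and -0.13 (SE 0.10; adjusted p = 0.281 by limma). The trend was removed only with a pseudocount of 1 TPM, which understates the changes of low genes such as these 2. With a pseudocount of 0.1 TPM and the trend left in, IFIT1 was at -1.35 and IFIT3 at -1.22, and removal of the trend was not tested there. BST2 stayed higher at 0.67 (SE 0.10; adjusted p = 0.000687 by limma), and IRF7 at 0.33 (SE 0.08; adjusted p = 0.0088 by limma), against 1.21 and 1.44 in TPM as deposited. Without the trend 62.6% of genes were called, 31.5% higher and 31.1% lower. The difference between the pairs shrank to 0.51. GPER1 itself, at 61.2% GC, went the other way, being lower at -1.87 and at -2.81 without the trend. Because the trend was estimated from genes that nearly all separated the groups, its removal sets a gene against other changed genes of like composition, and the part of GC content in these changes was not tested beyond this.

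**Figure D3:**
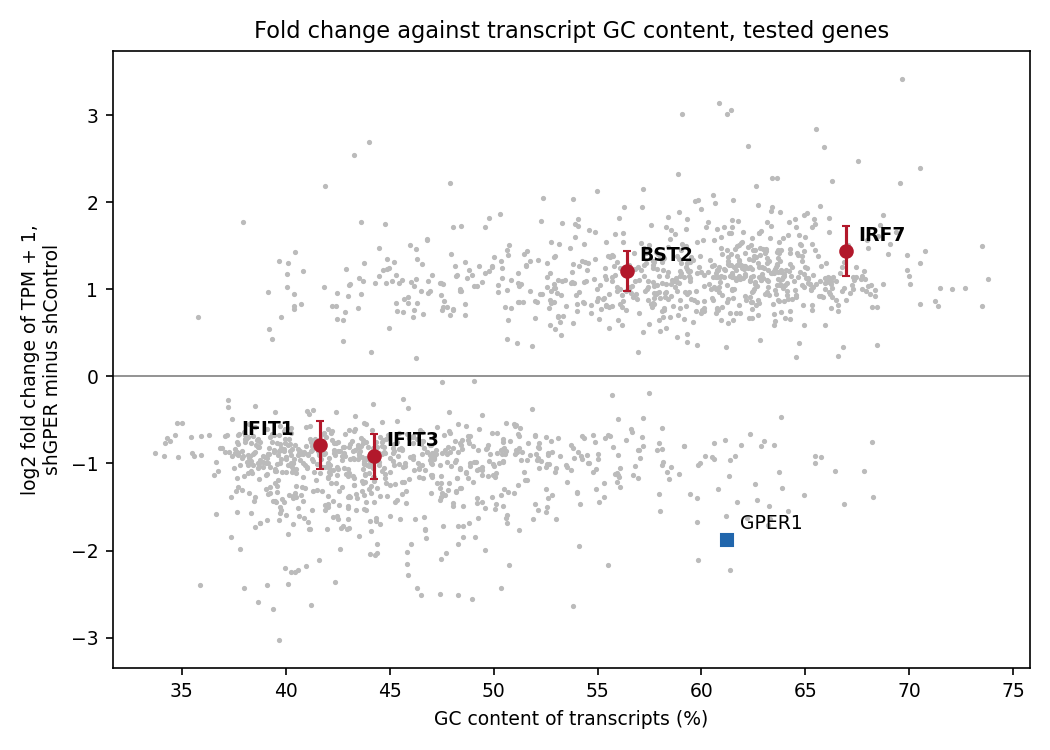
Log2 fold change of TPM + 1 (shGPER minus shControl) against the GC content of transcripts for all tested genes with a GC value (grey), with IFIT1, IFIT3, BST2 and IRF7 in red (bars, 95% interval of limma) and GPER1 as a blue square. The IFIT genes sit in the low-GC cloud below 0, BST2 and IRF7 in the high-GC cloud above 0, and GPER1 below 0 among high-GC genes.

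The rest of the response was taken from 6 lists of 186 genes in all, from sensors to effectors, chosen from general knowledge of the pathway. The table held 16 of them and 15 were tested; the others were not analysed here, among them OAS1, MX1, ISG15, IRF3, IRF9, IFNB1 and all 22 genes of antigen presentation. Of the 15, 7 rose and 8 fell, near the 47.8% and 50.6% of all tested genes, and 1 of the 8 is IFIT1, whose direction the filter fixed. Their median log2 change was -0.66, against -0.49 over all tested genes. Without the GC trend 5 were higher and 3 lower, with a median of 0.02, where 31.5% and 31.1% of all genes fitted were higher and lower. Without the 4 genes, 5 rose and 6 fell of 11.

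Upstream of IRF7, few genes of sensing were listed. IFIH1, the cytosolic sensor MDA5 of long double-stranded RNA, was too low for the test, at 1.57, 1.32 and 0.82 TPM in shGPER libraries and at 0.69, 0.50 and 0.58 TPM in shControl libraries. All its shGPER values were above its shControl values, and the groups likewise did not overlap for 95.3% of all listed genes. In a fit with no filter on low values the log2 fold change of IFIH1 was 0.48 (SE 0.14, adjusted p = 0.00989 by limma). The share of all genes called in that fit is not given here. IFIH1 was not fitted without the GC trend, so that check is missing for it. TBK1, the kinase that activates IRF3 and IRF7, fell to 13.2 ± 4.70 TPM in shGPER cells, against 20.9 ± 1.69 TPM in shControl cells (SD, n = 3 each), a log2 change of -0.67 (SE 0.21; adjusted p = 0.0131 by limma). Its shGPER libraries were uneven, with 12.4, 9.04 and 18.3 TPM. The log2 change was -0.44 without shGPER replicate 2 and -0.91 without shGPER replicate 3, and the call was lost with quantile normalization (adjusted p = 0.0736) and without the GC trend (0.25, adjusted p = 0.384).

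Of the interferons and their receptors and of the JAK-STAT transducers and inhibitors, 3 genes were listed and all 3 fell, as did 50.6% of all tested genes. IFNAR1, a subunit of the type I interferon receptor, was at 18.4, 19.9 and 17.2 TPM in shGPER libraries and at 28.9, 28.5 and 31.9 TPM in shControl libraries, with no overlap. PTPN2 and PTPN11 encode phosphatases, of which PTPN2 removes phosphate from JAK and STAT proteins and PTPN11 is known as SHP2. PTPN2 averaged 5.27 ± 0.822 TPM in shGPER cells and 12.7 ± 1.39 TPM in shControl cells, and PTPN11 averaged 10.8 ± 0.170 TPM in shGPER cells and 26.4 ± 0.971 TPM in shControl cells (SD, n = 3 each). Their log2 fold changes were -0.66 for IFNAR1, -1.13 for PTPN2 and -1.22 for PTPN11. Without the GC trend PTPN11 stayed lower, at -0.85, and the calls of IFNAR1 (0.02, adjusted p = 0.76) and PTPN2 (-0.32, adjusted p = 0.0517) were lost.

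Of 92 effector genes 10 were listed and tested, and 6 rose and 4 fell; since 98.4% of all tested genes were called (47.8% higher, 50.6% lower), 10 calls of 10 are no result about effectors. Beside BST2, the genes that rose were TRIM5, which binds retroviral capsids, TRIM21, a cytosolic antibody receptor and ubiquitin ligase, SP110, a nuclear body protein, HELZ2, a helicase, and UBA7, the enzyme that activates ISG15. TRIM5 was at 12.02, 12.67 and 14.8 TPM in shGPER libraries and at 4.49, 4.98 and 4.22 TPM in shControl libraries (log2 fold change 1.35, SE 0.11; adjusted p = 4.78e-06 by limma). TRIM21 was at 7.60, 8.07 and 7.18 TPM in shGPER libraries and at 2.97, 2.66 and 3.20 TPM in shControl libraries, the most like BST2 of all tested protein-coding genes in its profile over the libraries. SP110 was at 13.8, 14.4 and 14.9 TPM in shGPER libraries and at 5.97, 5.62 and 6.22 TPM in shControl libraries. None of the 3 overlapped between the groups, nor did 97.4% of all tested genes.

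TRIM5, SP110 and TRIM21 differed from the 4 genes in their relation to base composition. Their GC contents were 46.3%, 48.2% and 48.7%, in bins where 41 of 163 genes (TRIM5) and 47 of 162 genes (SP110 and TRIM21) rose. Without the GC trend their log2 fold changes were 1.99, 1.61 and 1.53, above the 1.35, 1.15 and 1.13 in TPM as deposited. The upward shift follows from the removal itself, as the median log2 changes of these bins were -0.88 (TRIM5) and -0.83 (SP110 and TRIM21). PTPN11, at 49.0% GC, was likewise shifted up, from -1.22 to -0.85. HELZ2, at 66.5% GC, averaged 17.0 ± 1.31 TPM in shGPER cells and 8.76 ± 0.376 TPM in shControl cells (SD, n = 3 each); it rose by 0.88 on the log2 scale, and was called lower without the trend (-0.23; limma, adjusted p = 0.0155). UBA7 rose by 0.56, to 2.37 ± 0.358 TPM in shGPER cells against 1.30 ± 0.376 TPM in shControl cells (SD, n = 3 each). Its call was lost with quantile normalization (0.15, adjusted p = 0.318) and without the GC trend (-0.17, adjusted p = 0.323).

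Beside the IFIT genes, TNFSF10 and DDX60L fell. TNFSF10, which encodes the death ligand TRAIL, was at 1.68, 1.08 and 1.64 TPM in shGPER libraries and at 6.20, 4.24 and 4.70 TPM in shControl libraries, with no overlap and a log2 fold change of -1.29 (SE 0.16; adjusted p = 6.56e-05 by limma), and it stayed lower without the GC trend (-0.49). DDX60L, a helicase gene related to the antiviral DDX60, averaged 13.9 ± 1.76 TPM in shGPER cells and 27.1 ± 3.36 TPM in shControl cells (SD, n = 3 each), and its call was lost without the trend (0.0061, adjusted p = 0.968). Without the trend 4 of the 10 effectors were higher (BST2, TRIM5, TRIM21 and SP110) and 2 lower (TNFSF10 and HELZ2). Of all genes fitted without it, 31.5% were higher and 31.1% lower, so these counts are no result about effectors.

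**Figure D4:**
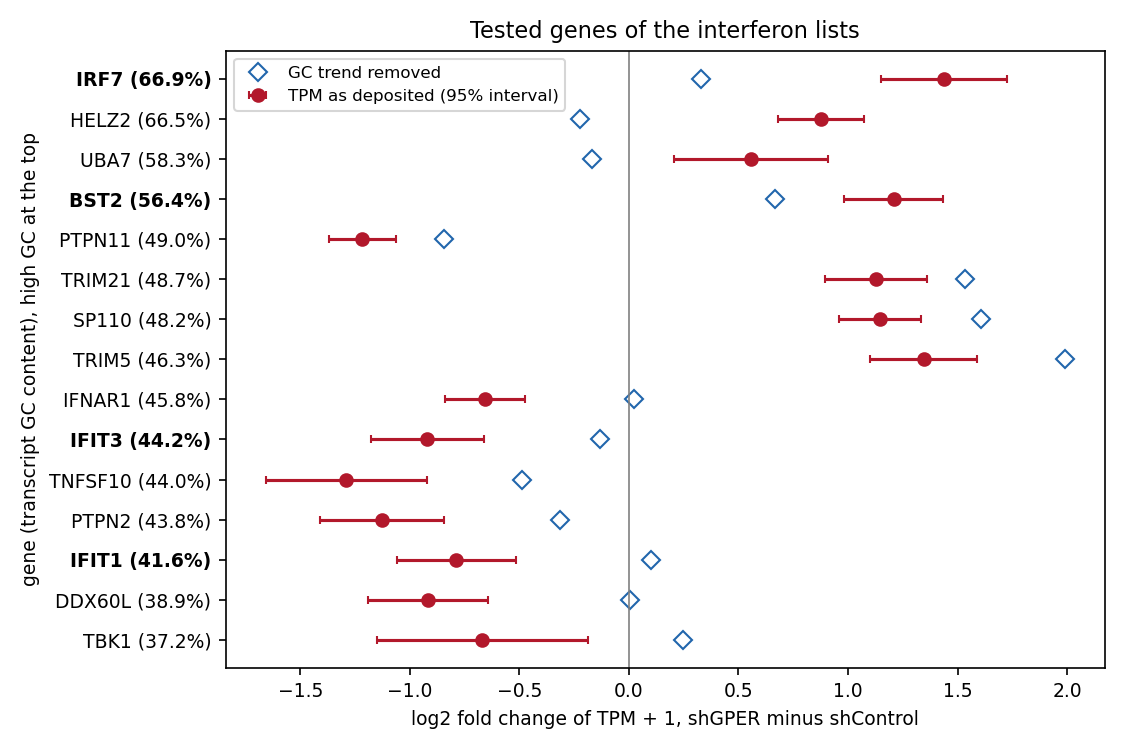
Log2 fold change of TPM + 1, shGPER minus shControl, for the 15 tested genes of the interferon lists, ordered by transcript GC content (in brackets; highest at the top). Red points with 95% intervals of limma are TPM as deposited, open diamonds are values with the GC trend removed, and bold names are IFIT1, IFIT3, BST2 and IRF7; TRIM21, SP110 and TRIM5 lie further from 0 without the trend, and IFIT1 and IFIT3 lie near 0.

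The machinery that processes hairpins was also looked up, as were genes known to respond when stress-activated kinases, PKR among them, phosphorylate the translation factor eIF2 alpha; PKR is the one of these that senses double-stranded RNA. DICER1, which cuts hairpins into short interfering RNAs, was the sole listed gene of 14 for short RNA processing; it fell to 3.25, 4.60 and 3.71 TPM in shGPER libraries, against 12.1, 12.7 and 13.2 TPM in shControl libraries (log2 fold change -1.50, SE 0.12; adjusted p = 4.52e-06 by limma), and was lower at -0.62 without the GC trend. Of 11 outputs of the eIF2 alpha kinases 3 were listed. The transcription factor gene CEBPB rose to 167, 213 and 228 TPM in shGPER libraries, against 50.8, 54.6 and 65.0 TPM in shControl libraries, and the pseudokinase gene TRIB3 was at 56.1 to 69.5 TPM in shGPER libraries and at 25.4 to 26.7 TPM in shControl libraries. CEBPG, which encodes a partner of such factors, fell to 12.5 ± 0.749 TPM in shGPER cells, against 26.9 ± 0.562 TPM in shControl cells (SD, n = 3 each). Without the GC trend the log2 changes of these outputs shrank to 0.72 for CEBPB, 0.29 for TRIB3 and -0.16 for CEBPG, against 1.81, 1.27 and -1.05 in TPM as deposited.

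The annotation in the tables ties a further 35 protein-coding genes to interferon or to defense against virus, of which 31 were tested. Of these 10 rose and 21 fell, where 47.8% and 50.6% of all tested genes did, and their median log2 change was -0.81 against -0.49 over all tested genes. Of the 10, CARD9 and GARIN5A, named here after their values were seen, were under 1 TPM in all shControl libraries and passed the filter through shGPER libraries alone, which fixed their direction. Without the GC trend 2 of the annotated genes were higher and 13 lower, where 31.5% and 31.1% of all genes fitted were. Most are annotated for one broad term. The 7 with the smallest p were KIF5B, TAX1BP1, CD44, CAPN2, CCL2, TRIM44 and CYP27B1, and of them CYP27B1, the enzyme that makes active vitamin D, alone rose, to 20.3, 22.7 and 25.2 TPM in shGPER libraries, against 7.37, 6.84 and 6.41 TPM in shControl libraries. TAX1BP1, an autophagy receptor annotated as a negative regulator of type I interferon production, averaged 14.1 ± 0.638 TPM in shGPER cells and 48.1 ± 1.29 TPM in shControl cells, and TRIM44, annotated as a positive regulator of defense against virus, averaged 11.3 ± 1.22 TPM in shGPER cells and 31.7 ± 0.604 TPM in shControl cells (SD, n = 3 each). In the same annotation IFIT1, BST2 and IRF7 share the terms for defense response to virus and type I interferon signaling, and IFIT3 carries neither.

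The genes most like each of the 4 were found by the root mean square difference of log2(TPM + 1) over the 6 libraries after each gene's own mean was taken off. For IFIT1 they were TCF19, MBTPS2 and VCPIP1 (0.05 to 0.06), for IFIT3 TTC37, S100P and SSR3 (0.03 to 0.04), for BST2 TRIM21, PGM2L1 and RAB29 (0.06 to 0.07), and for IRF7 HCN2, MRC2 and RARA (0.04 to 0.06). By the same measure IFIT1 and IFIT3 were 0.11 apart, BST2 and IRF7 0.22, and genes of different pairs 1.00 to 1.20. By this measure each of the 4 was thus nearer to genes outside its pair than to its partner. The measure understates the changes of low genes such as IFIT1. Since 98.4% of all tested genes were called, near matches outside a pair are no result about the pairs. Of these 12 genes, TRIM21 is the only one in the interferon lists.

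The listed genes summed to 46584 to 49148 TPM in shGPER libraries and to 61181 to 64236 TPM in shControl libraries. That is 4.66 to 4.91% of a whole library in shGPER and 6.12 to 6.42% in shControl, and the read depth of each library is unknown. No marker of leukocytes or plasmacytoid dendritic cells, which hold much IRF7, was in the table. The epithelial origin of the cells could be checked on few genes. Of 7 epithelial markers the table held CDH1 alone, at 0.11 to 0.42 TPM in shGPER libraries and 0.44 to 0.71 TPM in shControl libraries. Of 7 gastric mucous markers it held TFF1 alone, at 0.26 to 2.91 TPM in shGPER libraries and 4.44 to 6.22 TPM in shControl libraries. Of 5 fibroblast markers 4 were listed, summing to 31.9 to 33.2 TPM in shGPER libraries and 7.02 to 9.91 TPM in shControl libraries. COL1A1 made up most of that sum in shGPER libraries, at 28.8 to 30.1 TPM against 2.06 to 3.79 TPM in shControl libraries. COL1A2, too low for the test, was at 0.40 to 0.70 TPM in shGPER libraries and 0.28 to 0.36 TPM in shControl libraries. DCN and LUM fell. Without the GC trend their calls were lost (limma, DCN 0.22, adjusted p = 0.256, and LUM 0.23, adjusted p = 0.0798), and COL1A1 stayed higher, at 2.08. Of 5 endothelial markers CDH5 was listed, at 6.19 to 7.99 TPM in shGPER libraries and 1.43 to 1.96 TPM in shControl libraries. None of the listed markers was at 0 in all libraries, and their part in the results above was not tested.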

How the data were processed

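Expression was measured in 3 shGPER and 3 shControl libraries of SNU668 cells, grouped by title. A stranded mRNA kit was used on total RNA, per the labels' protocols. Per the submitters' processing notes, fastp, HISAT2, RSEM and the build hg38 were used; versions, settings and whether counting used strand are not given in the sources used here. Values were deposited by the authors as TPM per gene, which keep no read depth, so no counting error can be given. Shifts of abundant transcripts move all other TPM.

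Genes with at least 1 TPM in at least 3 libraries (1651 of 2128) were fitted as log2(TPM + 1) in R 4.3.3 by limma 3.58.1, as shGPER minus shControl with an intensity trend and no covariate, and with Benjamini-Hochberg adjustment over all genes tested and a threshold of 0.05. The script was tested on simulated data in which most genes were unchanged, unlike in these data. That test lends no support to the calls given here. Fold changes of low genes are understated on this scale. The 4 genes, the gene lists and the tests were chosen with earlier results of these data known. Named are the 4 genes, GPER1, every listed gene of the pathway lists, the 8 further annotated genes with the smallest p and the 3 genes most like each of the 4; 1 of the 8 annotated genes is not reported here, and where a symbol had more than 1 entry, that of highest mean TPM was taken. The same replicate numbers occur in both groups and were not used in the fit.

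GC content is the median over a gene's transcripts in GENCODE release 29 (GRCh38, also called hg38), with 2078 of 2128 genes matched. The GC trend was estimated per library, by a natural spline (3 degrees of freedom) through deviations from gene means, over the tested genes with a GC value (98.5%); the others were dropped from that fit. Promoter windows come from RefSeq (GRCh38.p14). Further alternatives changed the pseudocount (0.1 and 0.5 TPM), the filter (none, or 5 TPM), the scaling (median centring or quantile normalization) and the model (no intensity trend, robust prior, replicate block), or left out 1 library at a time. Python 3.11.15 with scipy 1.17.1 was used for the other steps.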

Additional observations from a re-analysis of the deposited data

How the results depend on the processing

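BST2, IRF7 and GPER1 kept their direction and call under all 16 alternatives, with log2 fold changes of 0.67 to 1.49, 0.33 to 1.59 and -2.81 to -1.72. IFIT3 kept them under 14 of 15 (-1.22 to -0.13) and IFIT1 under 11 of 12 (-1.35 to 0.10, with -1.35 at a pseudocount of 0.1 TPM); the exception for both was the removal of the GC trend (IFIT3 -0.13, IFIT1 0.10), which is built to take out what runs with base composition. That removal was run only with a pseudocount of 1 TPM. With a filter of 5 TPM, BST2 passed through its shGPER libraries alone and GPER1 through its shControl libraries alone. That filter thus fixed the direction of both. Neither IFIT gene reached it. IFIT1 gave no value without any one shControl library, since IFIT1 then no longer passed the filter of 1 TPM. Without any one library the remaining values were 1.18 to 1.25 for BST2, 1.30 to 1.54 for IRF7, -0.96 to -0.84 for IFIT3 and -0.86 to -0.72 for IFIT1, all called. The difference between the pairs, 2.18, was 2.82 and 2.47 with pseudocounts of 0.1 and 0.5 TPM, 2.51 with quantile normalization and 0.51 without the GC trend.

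Without the GC trend the table had 512 genes higher and 506 lower (31.5% and 31.1%), and the interferon lists 5 higher and 3 lower. With a filter of 5 TPM, which tests fewer genes, the table had 438 higher and the lists 6 higher and 5 lower. The shares of all genes at that filter are not given here, so its counts are no result about the lists. Of the 6, BST2, TRIM5 and TRIM21 passed it through shGPER libraries alone, which fixed their direction. Among the other named genes, removal of the trend turned the sign of TBK1 (0.25), IFNAR1 (0.025), UBA7 (-0.17), DDX60L (0.0061), HELZ2 (-0.23), MBTPS2 (0.076), VCPIP1 (0.13), TTC37 (0.0019) and SSR3 (0.038). Quantile normalization moved IFNAR1 to -0.43, S100P to -0.34 and CD44 to -0.72, all still called, and a pseudocount of 0.1 TPM moved UBA7 to 0.84. Median centring moved the median of all log2 fold changes by 0.15 and changed no call of a named gene. Deviations of same-numbered libraries did not correlate (r = 0.03, -0.09 and 0.01), so the replicate numbers are not read as pairs; with a replicate block the log2 fold changes of the 4 genes were the same and each stayed called (IFIT1 -0.79, IFIT3 -0.92, BST2 1.21, IRF7 1.44). Depth is unknown.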
